A study of Mus musculus with 6 samples.

Results

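The cells described here are the blood endothelial cells of larger vessels, meaning the lining of veins, venules and arteries, that were captured together with dissected dermal collecting lymphatic vessels of mice. A cell was counted as a member when its barcode held 500 or more detected genes, with no more than 10% of its UMIs from mitochondria (unique molecular identifiers, each standing for 1 counted RNA molecule), at least 2 UMIs of Pecam1 and Cdh5 together, at least 1 UMI of Vwf, and 0 UMIs of Gpihbp1, Prox1, Mmrn1 and Ptprc. The members were thus chosen by the measured UMI counts of these 7 genes, whose values are description only. The rule found 54 members among 24488 kept barcodes, or 0.221% (95% exact interval 0.166% to 0.288%). All 54 are C57BL/6 cells from vessels that run between the inguinal and axillary lymph nodes, made visible with Evans Blue.

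There was 1 library for each of 6 combinations of age and labelled sex: young (6 weeks), middle-aged (12 months) and aged (18 months), each male and female. The members numbered 21 in the young male library, 8 in the young female one, 8 and 9 in the labelled middle-aged male and female libraries, and 2 and 6 in the aged male and female libraries. The number of mice behind a library is not stated in the sources used here, so p-values measure the spread between these libraries only. The 18-month mice were supplied by the National Institute on Aging and no supplier is named for the others, so supplier and the 18-month age cannot be told apart. The labels describe a hand dissection with fat and connective tissue trimmed away, with no sort for blood vessels, so the members are what the dissection left.

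Endothelial cells differ by the vessel they line. Capillary cells, which exchange fatty acids and gases with tissue, carry Gpihbp1, the anchor of lipoprotein lipase. Lymphatic cells depend on the transcription factor Prox1. Endothelium of larger vessels makes von Willebrand factor, the product of Vwf, which captures platelets and is stored with P-selectin in Weibel-Palade bodies. Venules and veins are the main sites where leukocytes leave the blood, through the selectins and the chemokine-binding receptor Ackr1. Arteries are known for Notch signalling, the connexins Gja4 and Gja5, and elastic fibres.

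The 6 libraries held 9616652 to 28921825 UMIs and 999 to 8228 kept barcodes. The members held 234316 UMIs in all, between 1034 and 11398 per cell. Their median depth was 3904.5 UMIs, against 3023 in capillary and 5453 in lymphatic endothelium. Xist, transcribed only from an inactive X, and 4 Y-linked genes went against the labels of the middle-aged pair. Members of the labelled middle-aged male library held 57 UMIs of Xist and 0 Y-linked UMIs, while those of the labelled middle-aged female library held 0 of Xist and 23 Y-linked UMIs. In the members of the other 4 libraries these genes followed the labels. Of the kept barcodes, 63 occurred in more than 1 library, and none of these belonged to a member. Scrublet, a doublet caller, marked 590 kept barcodes (2.41%), with only 0.100% in the labelled middle-aged female library, and 1 of the 54 members.

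**Figure D1:**
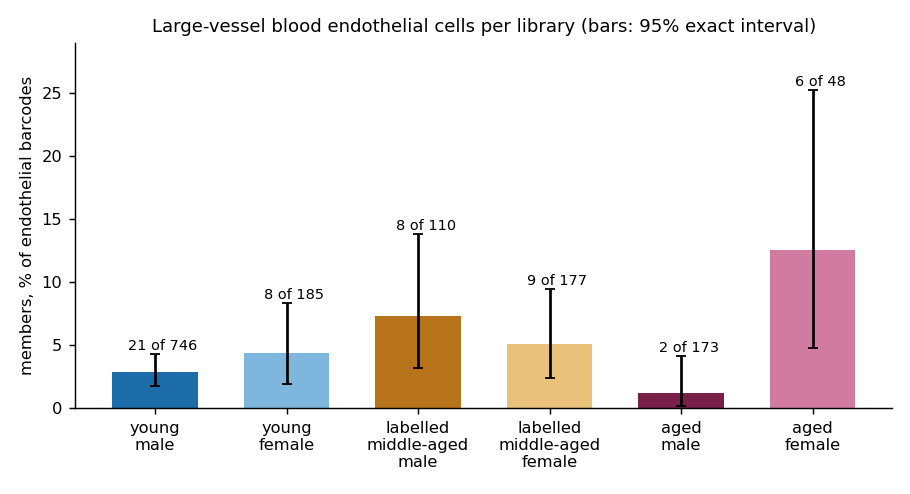
Members as a percentage of endothelial barcodes (at least 2 UMIs of Pecam1 and Cdh5 together and no Ptprc) in each of the 6 libraries, with 95% exact binomial intervals and the counts above the bars. The aged female library has the highest share (6 of 48) and the aged male library the lowest (2 of 173), and the intervals of most libraries overlap.

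The label was checked against marker genes of other cell types that the dissection could hold. Platelets also carry Vwf, but the platelet and megakaryocyte list of 8 genes summed to 5 UMIs over all 54 members, and Gp1ba, Gp1bb, Gp5, Gp9, Ppbp and Treml1 were at 0 in every member. T and B cell markers were also at 0. The 13 lymphatic markers summed to 24 and 7 UMIs in the young male and young female members, 2 and 3 in the labelled middle-aged male and female members, 0 in the aged male and 17 in the aged female members. A pair of members in the labelled middle-aged male library went against the label. They held 140 and 36 UMIs of epithelium markers such as Epcam, 0 UMIs of the arterial list and 0 of the capillary list, with 5 and 1 UMIs of the venous list, and 2 Vwf UMIs each. Together they held 13008 of the 25313 UMIs of the 8 members of that library (51.4%), so its sums are about evenly theirs and those of the other 6 members. Values of that library without the pair are given where they change a statement. In the young female library, 1 member held 249 fibroblast UMIs beside 58 arterial ones. In all, 17 of the 54 members held at least 3 UMIs of fibroblast or of macrophage markers, and 3 held at least 3 UMIs of epithelium markers. Counts without these cells are given beside the results.

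Vwf itself was sparse. The members held 166 Vwf UMIs in all, with a median of 2 and a maximum of 13 per cell. In CPM, the UMI count of a gene scaled to a common total, pooled over libraries, Vwf stood at 708 in members, against 56.0 in capillary endothelium, 50.1 in lymphatic endothelium and 4.32 in kept barcodes outside these classes. Pecam1, a junction protein of all endothelium, stood at 1502 CPM in members, against 893 in capillary and 806 in lymphatic endothelium. Cdh5, the adherens junction cadherin of endothelium, stood at 687 CPM in members, against 992 in capillary and 650 in lymphatic endothelium. The rule's thresholds cut through graded values. The 23 members with a lone Vwf UMI had a median depth of 2454 UMIs. Selp was detected in 26.1% of them and the capillary gene Rgcc in 34.8%. Of the 22 members with 3 or more Vwf UMIs, 77.3% held Selp and 18.2% Rgcc. Just outside, 142 cells met every criterion but had 0 Vwf UMIs, and Selp was detected in 12.0% of those and Rgcc in 45.8%. The lone-Vwf members stood near these 142 cells in pooled CPM: Selp at 297 against 223, Ackr1 at 77.4 against 122 and Rgcc at 413 against 493. A further 135 cells were left out for Gpihbp1 alone, 17 of them for a lone Gpihbp1 UMI, and Rgcc was detected in 88.1% of the 135.

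Members were set against capillary endothelium of the same library, 1007 cells with Gpihbp1 and none of Prox1, Mmrn1 or Ptprc, by summing counts per library and class. The 5 libraries with at least 5 cells of each class entered the fit, which leaves out the aged male library. Among the genes that passed, 5 of 11 tested venous genes were higher in members, and 11 of 16 tested capillary genes, 4 of 10 lipid genes and 3 of 8 VEGF and angiopoietin genes were lower. Of 2021 genes tested, 108 passed an adjusted p of 0.05 (5.34%), 46 of them higher in members (2.28%) and 62 lower (3.07%), by edgeR's quasi-likelihood test with Benjamini-Hochberg adjustment and the library as a block. The median log2 difference over all tested genes was 0.01. The number of calls was 51 without the young male library, 63 without the young female library and 56 without the labelled middle-aged female library. It was 49 in libraries with at least 3 members of at least 2 Vwf UMIs (10 higher and 39 lower), 49 with the cells that held fibroblast or macrophage UMIs left out, and 115 with the cells that held epithelium UMIs left out.

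Of 19 listed venous genes, 11 were tested, and Ackr1, Selp, Lrg1, Bgn and Il6st were higher and 0 lower, with a median log2 difference of 1.53 over the 11. Ackr1 encodes the atypical receptor that binds inflammatory chemokines on venules (chromosome 1, bases 173331886 to 173333750, minus strand, GRCm38). It stood at 432 and 344 CPM in young male and young female members, 158 and 249 CPM in labelled middle-aged male and female members and 291 CPM in aged female members. In capillary endothelium it stood at 10.99 and 9.99 CPM in the young male and female libraries, at 0 and 4.10 CPM in the labelled middle-aged male and female libraries, and at 0 in the aged female library. The members were higher in all 5 libraries and the classes did not overlap, with a log2 difference of 5.55 ± 0.40 (SE, adjusted p = 1.21e-06). Ackr1 was not confined to endothelium in this tissue: fibroblast barcodes held 62.9 CPM, and barcodes of 1 to 50 UMIs, which carry free RNA, held 28.2 CPM in the 5 libraries.

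Selp encodes P-selectin, which tethers rolling leukocytes and is released from Weibel-Palade bodies (chromosome 1, bases 164115264 to 164150026, plus strand). It stood at 970 and 859 CPM in young male and female members, 237 and 312 CPM in labelled middle-aged male and female members, and 678 CPM in aged female members. Capillary endothelium of the same libraries held 41.5, 69.9, 11.8, 75.8 and 5.57 CPM in that order. Members were higher in every fitted library without overlap (log2 difference 3.96 ± 0.43, adjusted p = 7.23e-05). Lrg1, a secreted modulator of TGF-beta signalling, stood at 1029, 791, 158, 623 and 678 CPM in members of the 5 libraries in that order, against 156, 194, 159, 254 and 329 CPM in capillary endothelium (log2 1.67 ± 0.32, adjusted p = 0.00624). Its 2 ranges overlapped. In the labelled middle-aged male library members and capillary cells were level, and without the pair with epithelium markers its members stood at 325 CPM of Lrg1. Il6st, the gp130 co-receptor shared by the interleukin-6 family, was higher in members of all 5 libraries (log2 1.55 ± 0.25, adjusted p = 0.00185). Bgn, the proteoglycan biglycan, was also higher in all 5 (log2 1.94 ± 0.37, adjusted p = 0.00612). Plvap, which forms the diaphragms of fenestrae and caveolae, averaged 872 ± 339 CPM in members and 527 ± 160 CPM in capillary endothelium (SD, n = 5), and did not pass the test (log2 0.84 ± 0.29, adjusted p = 0.122). The venous transcription factor Nr2f2 did not pass either (log2 0.51 ± 0.30, adjusted p = 0.423).

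**Figure D2:**
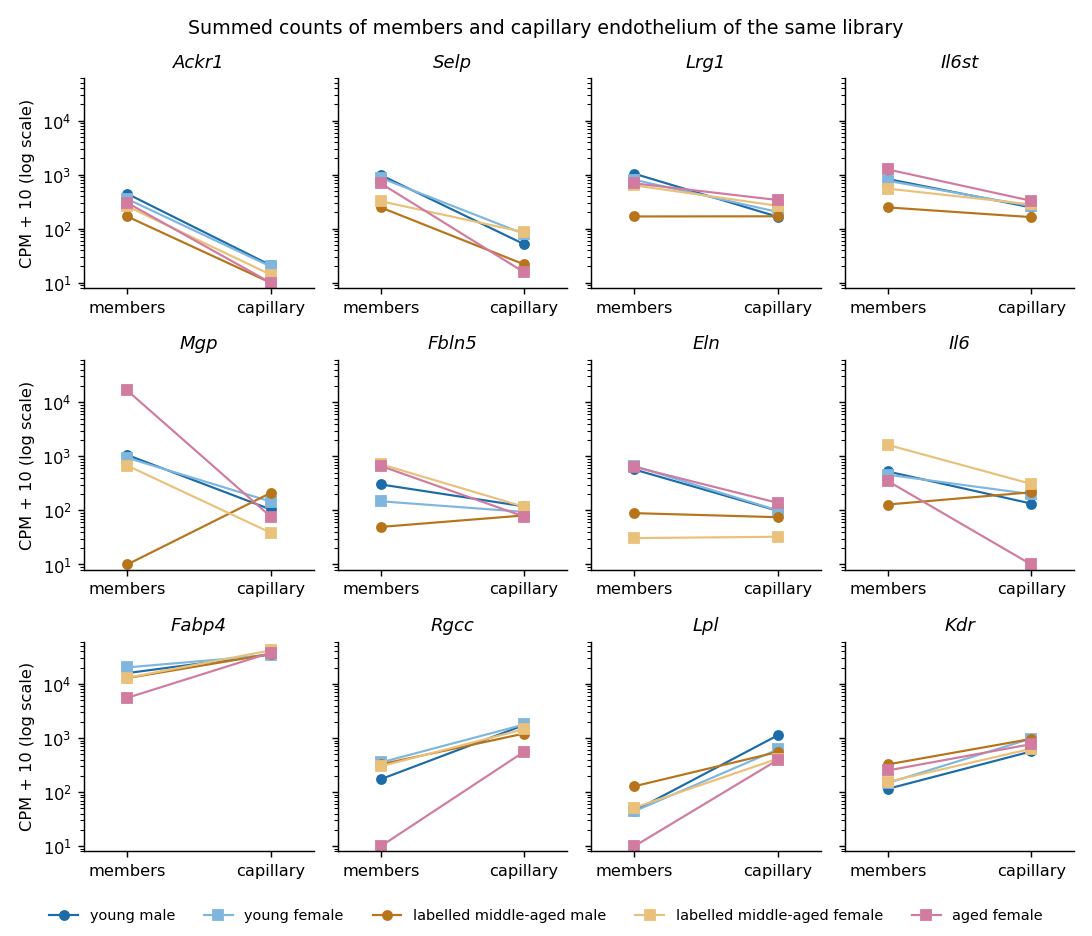
Summed counts of members (left of each panel) and capillary endothelium (right) of the same library, as CPM + 10 on a log axis, for 12 genes in the 5 fitted libraries; each line is 1 library. Ackr1, Selp and Il6st are higher in members of all 5 libraries, and Lrg1, Mgp, Fbln5, Eln and Il6 are higher in members of 4. Fabp4, Rgcc, Lpl and Kdr are lower in members of all 5.

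Of the 20 listed endothelial chemokines and cytokines, 9 were tested, 2 were higher (Il6, Nfkbia) and 2 lower (Cxcl9, Cxcl12), with a median log2 difference of 0.36. Il6, an inflammatory cytokine, stood at 514 and 447 CPM in young male and female members, 119 and 1620 CPM in labelled middle-aged male and female members, and 339 CPM in aged female members. Capillary endothelium held 124, 190, 207, 299 and 0 CPM in the same order. Barcodes of 1 to 50 UMIs held 157 CPM of Il6, within the range of the capillary values. Members were higher for Il6 in 4 of the 5 libraries in the fit that includes the pair with epithelium markers (log2 2.03 ± 0.49, adjusted p = 0.0226). Without that pair members were higher in all 5, with 244 CPM left in the labelled middle-aged male members (3 UMIs). The Il6 call was lost under 6 of 17 other settings, among them without the young male, the young female or the labelled middle-aged female library. Nfkbia, the inhibitor that NF-kappaB induces against itself, stood at 2501, 2853, 869, 2056 and 2156 CPM in members, against 1462, 1702, 938, 1381 and 540 CPM in capillary endothelium (log2 0.88 ± 0.24, adjusted p = 0.044). Its lower value in the labelled middle-aged male members was 1219 CPM of Nfkbia without the pair, above the capillary value of that library. Nfkbiz, a nuclear cofactor of NF-kappaB, averaged 711 ± 98.9 CPM in members and 332 ± 86.1 CPM in capillary endothelium (SD, n = 5; log2 1.21 ± 0.23, adjusted p = 0.00612). Nfkbiz was named after its values were seen. Cxcl12, a chemokine also known from arteries, was lower in members of all 5 libraries (log2 -2.28 ± 0.43, adjusted p = 0.00622).

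The promoters of 3 of these higher genes are shown because each holds a match to a motif that was searched in the promoters of all called genes. Each window runs from 250 bases before to 50 bases after the gene's start, from RefSeq on GRCm38.p6, and capitals mark the matched motif. Ackr1 (chr1:173333454-173333753, minus strand) holds the reverse complement of the GATA letters AGATAA 25 bases after the start. Il6 (chr5:30012864-30013163, plus strand) and Nfkbia (chr12:55492598-55492897, minus strand) hold the NF-kappaB letters GGG and TTTCC, set apart by any 2 bases, at 44 and 29 bases before the start, in Nfkbia on the reverse strand.
Ackr1: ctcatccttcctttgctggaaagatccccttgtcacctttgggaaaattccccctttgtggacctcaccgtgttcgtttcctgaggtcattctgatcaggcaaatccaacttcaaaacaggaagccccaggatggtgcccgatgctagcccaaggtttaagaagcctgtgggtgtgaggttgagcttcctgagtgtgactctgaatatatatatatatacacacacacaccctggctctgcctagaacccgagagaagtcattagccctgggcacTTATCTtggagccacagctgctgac
Il6: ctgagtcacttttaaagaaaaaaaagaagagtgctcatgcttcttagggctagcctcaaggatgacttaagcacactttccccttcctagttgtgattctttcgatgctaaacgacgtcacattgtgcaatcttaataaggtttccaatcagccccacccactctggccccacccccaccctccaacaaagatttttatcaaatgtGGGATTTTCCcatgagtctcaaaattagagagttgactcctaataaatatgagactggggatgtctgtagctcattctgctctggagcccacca
Nfkbia: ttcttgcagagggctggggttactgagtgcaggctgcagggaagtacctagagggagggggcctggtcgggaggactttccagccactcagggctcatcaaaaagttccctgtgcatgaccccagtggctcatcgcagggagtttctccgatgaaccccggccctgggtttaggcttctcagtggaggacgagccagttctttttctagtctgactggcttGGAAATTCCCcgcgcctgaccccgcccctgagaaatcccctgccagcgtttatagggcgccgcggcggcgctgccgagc
Both motifs were searched separately on both strands, and the matches shown do not overlap another match. The NF-kappaB letters occurred in 535 of 32851 mouse promoters (1.63%). It occurred in 4 of the 47 promoters matched for 33 of the 46 higher genes (Cd9, Il6, Nfkbia and Vim), and in 0 of the 66 promoters matched for 45 of the 62 lower genes. AGATAA occurred in 11.2% of all promoters, in 2 of the 47 (Ackr1 and Rapgef5) and in 4 of the 66. A match is a run of letters and not a bound site, and binding was not measured.

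Genes of arteries and of the elastic vessel wall made up another group. Of 26 listed arterial genes, 11 were tested; Fbln5, Fbln2, Mgp, Clu, Eln and Ltbp4 were higher and Cxcl12 was lower, with a median log2 difference of 1.11. Fbln5, which organises elastic fibres, stood at 292, 138, 39.5, 706 and 654 CPM in members of the 5 libraries in the order used above, against 109, 83.9, 70.8, 107 and 66.8 CPM in capillary endothelium (log2 1.98 ± 0.40, adjusted p = 0.00799). Members were higher in 4 of the 5 libraries, and without the pair with epithelium markers the fifth held 81.3 CPM of Fbln5, a lone UMI. Eln, the elastin precursor, stood at 561, 653, 79.0, 20.8 and 630 CPM in members, against 88.4, 89.9, 64.9, 22.5 and 128 CPM in capillary endothelium (log2 2.28 ± 0.36, adjusted p = 0.00182). Its difference stood in the 2 young and the aged female libraries, with the labelled middle-aged female library near the capillary level and the male one at 163 CPM of Eln (2 UMIs) without the pair. Mgp, an inhibitor of vessel calcification, stood at 1052, 928, 0, 664 and 16495 CPM in members, against 94.1, 136, 201, 28.7 and 66.8 CPM in capillary endothelium (log2 3.81 ± 0.79, adjusted p = 0.00966). Its aged female value stands far above the rest, and the call was lost under 4 of 16 other settings, among them without the young female and without the labelled middle-aged female library. The young female value rests almost wholly on 26 Mgp UMIs of 1 member, the one that held 249 fibroblast UMIs. How much of that Mgp was fibroblast RNA was not tested. Clu, the chaperone clusterin, stood at 678, 103, 39.5, 1557 and 1308 CPM in members, against 58.6, 65.9, 118, 209 and 284 CPM in capillary endothelium (log2 2.33 ± 0.44, adjusted p = 0.00612). Members were lower in the labelled middle-aged male library with the pair or without it (81.3 CPM, a lone UMI of Clu).

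Smooth muscle and pericyte markers were found in members as well, but not in the cells with the most UMIs of the arterial list. The aged female members with 526, 305 and 217 UMIs of that list held 0 UMIs of these markers. The members with the most UMIs of these markers (81, 57 and 54) held 25, 54 and 50 of the arterial list. The 12 listed markers summed to 236 and 42 UMIs in the young male and female members, 11 and 134 in the labelled middle-aged male and female members, 6 in the aged male and 32 in the aged female members. Tagln, an actin-binding protein of smooth muscle, averaged 589 ± 388 CPM in members and 117 ± 28.6 CPM in capillary endothelium (SD, n = 5; log2 2.34 ± 0.37, adjusted p = 0.00182). It was the only one higher of 5 tested markers, and the part of mural RNA in the arterial and elastic-fibre calls was not tested.

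Basement membrane and elastic fibre genes moved in both directions. Of 22 listed, 15 were tested; the 5 higher ones were the elastic-fibre genes Eln, Fbln2, Fbln5, Mgp and Ltbp4, and the 3 lower ones were Col4a1, Col4a2 and Sparc, so the median was -0.07. Col4a1, a chain of the collagen of capillary basement membrane, averaged 322 ± 148 CPM in members and 890 ± 181 CPM in capillary endothelium, lower in members of all 5 libraries (SD, n = 5; log2 -1.41 ± 0.27, adjusted p = 0.00612).

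Of 22 listed capillary genes, 16 were tested and 11 were lower, with 0 higher and a median log2 difference of -1.64. Gpihbp1 itself, a capillary gene, was at 0 in members by the rule and was not tested. Rgcc, a cell-cycle regulator of capillary cells, stood at 164 and 344 CPM in young male and female members, 316 and 291 CPM in labelled middle-aged male and female members, and 0 in aged female members. Capillary endothelium held 1733, 1775, 1204, 1457 and 551 CPM in that order (log2 -2.69 ± 0.33, adjusted p = 0.000251). Members were lower in each library, but without the pair with epithelium markers the labelled middle-aged male members stood at 650 CPM of Rgcc, above the lowest capillary value. Btnl9, a butyrophilin-like protein, was represented by 5 UMIs in all 54 members and 1319 in capillary endothelium. That is a pooled CPM ratio of 0.0638 (95% interval 0.0207 to 0.149, counting error only), while the fit by library gave a log2 of -6.20 ± 0.66. Car4, a carbonic anhydrase on the capillary surface, had a lone UMI in members and 883 in capillary endothelium. That is a ratio of 0.0191 (0.000482 to 0.107, counting error only), while the fit by library gave a log2 of -5.38 ± 0.68. Timp4, a metalloproteinase inhibitor, averaged 37.7 ± 30.6 CPM in members and 560 ± 84.6 CPM in capillary endothelium (SD, n = 5; log2 -3.70 ± 0.39, adjusted p = 7.2e-05).

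Of 16 listed lipid genes, 10 were tested and 4 were lower (Cd36, Fabp4, Plin2 and Lpl), with 0 higher and a median of -1.36. Fabp4, the fatty acid carrier of capillary endothelium, stood at 15908, 20282, 12879, 13020 and 5547 CPM in members of the 5 libraries, against 35556, 34314, 35807, 41928 and 37833 CPM in capillary endothelium (log2 -1.48 ± 0.23, adjusted p = 0.00182). Every member value lay below every capillary value. This also held without the pair with epithelium markers, which left the labelled middle-aged male members at 26493 CPM of Fabp4. Restricting members to cells with at least 2 Vwf UMIs ended the Fabp4 call, both with 2 libraries in the fit (log2 -1.88) and with 5 libraries of at least 3 such members (log2 -2.08). Cd36, the fatty acid translocase, stood at 503, 1169, 1817, 2575 and 509 CPM in members, against 2312, 3655, 4649, 4935 and 3112 CPM in capillary endothelium (log2 -1.64 ± 0.23, adjusted p = 0.000614). Without the pair the labelled middle-aged male members stood at 3738 CPM of Cd36, below the capillary value of that library. Lpl, lipoprotein lipase, which Gpihbp1 holds on the capillary wall, was lower in members of all 5 libraries (log2 -3.94 ± 0.45, adjusted p = 9.5e-05).

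Of 17 listed VEGF and angiopoietin genes, 8 were tested and Kdr, Nrp1 and Flt1 were lower. Kdr, the main signalling receptor for VEGF-A, stood at 105, 138, 316, 145 and 242 CPM in members, against 557, 973, 956, 625 and 763 CPM in capillary endothelium (log2 -2.01 ± 0.27, adjusted p = 0.000414). Members were lower for Kdr in each library, and without the pair the labelled middle-aged male members stood at 650 CPM, within the capillary range. Nrp1, a VEGF co-receptor, was lower in all 5 libraries (log2 -1.74 ± 0.27, adjusted p = 0.00182), and the Flt1 call (log2 -0.86 ± 0.21, adjusted p = 0.0236) was lost under 7 of 17 other settings, among them without any 1 of the 2 young or 2 labelled middle-aged libraries. Cldn5, the claudin of endothelial tight junctions, averaged 434 ± 246 CPM in members and 1078 ± 450 CPM in capillary endothelium (SD, n = 5; log2 -1.24 ± 0.29, adjusted p = 0.019), a call lost without either young library or the labelled middle-aged female library.

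Among tested haemostasis genes other than Selp, only Procr passed. Of 24 listed, 8 were tested and Selp and Procr were higher, with 0 lower and a median of 0.77. Over all tested genes 2.28% were higher. Procr, the endothelial receptor for protein C, averaged 262 ± 222 CPM in members and 53.7 ± 10.2 CPM in capillary endothelium, higher in all 5 libraries (SD, n = 5; log2 2.29 ± 0.41, adjusted p = 0.0044). Thbd, thrombomodulin, averaged 294 ± 40.4 CPM in members and 271 ± 77.9 CPM in capillary endothelium and did not pass the test (adjusted p = 0.66). None of the 11 tested flow-response genes, 8 vasoactive genes, 4 Notch genes, 10 MHC class I genes, 12 heat shock genes, 13 antioxidant genes or 19 oxidative phosphorylation genes passed in either direction. Klf2, a shear-stress transcription factor, averaged 820 ± 184 CPM in members and 760 ± 270 CPM in capillary endothelium (SD, n = 5, adjusted p = 0.685). Of the other named calls, Igfbp4, an IGF-binding protein, was higher in members of all 5 libraries (log2 2.38 ± 0.33, adjusted p = 0.00059), as was Ctnnal1, an alpha-catenin relative (log2 2.84 ± 0.39, adjusted p = 0.00059). Cd9, a tetraspanin, stood at 3437 CPM in the labelled middle-aged male members and at 315 to 783 CPM in members of the other 4 libraries, against 132 to 306 CPM in capillary endothelium (log2 2.02 ± 0.38, adjusted p = 0.00612). The pair of members with epithelium markers belongs to the labelled middle-aged male library, and Cd9 passed the test without them too.

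At a common depth of 1500 UMIs, Selp, Ackr1, Sele, Cytl1 and Rgcc were each detected in a minority of the member cells. Each cell was thinned to 1500 UMIs, which kept 49 members, 834 capillary and 147 lymphatic cells and left out 5, 173 and 9. Selp was detected in 38.8% of thinned members (25.2% to 53.8%), against 3.36% of capillary, 5.44% of lymphatic and 0 of 7385 fibroblast cells, which allows a share of up to 0.0499%. Unthinned, the share for Selp was 51.9% of members, against 4.37% of capillary cells and 0.0129% of fibroblasts, whose median depth of 3909 UMIs was close to that of members. Ackr1 was detected in 30.6% of thinned members, against 0.719% of capillary, 1.36% of lymphatic and 7.92% of fibroblast cells. The member share lay above that of each other class for both genes, and fibroblasts were the nearest class for Ackr1. Sele, encoding E-selectin, which cytokines induce on venules, was detected in 24.5% of members (13.3% to 38.9%), against 0.839% of capillary and 12.9% of lymphatic cells. The intervals for Sele in members and lymphatic cells overlapped. Cytl1, a small secreted protein, was detected in 14.3% of members, against 0.12% of capillary cells, and Rgcc in 20.4% of members, against 81.3% of capillary cells. Car4 was detected in 0 of 49 members, which allows a share of up to 7.25%, against 28.2% of capillary cells. These intervals cover counting error only.

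**Figure D3:**
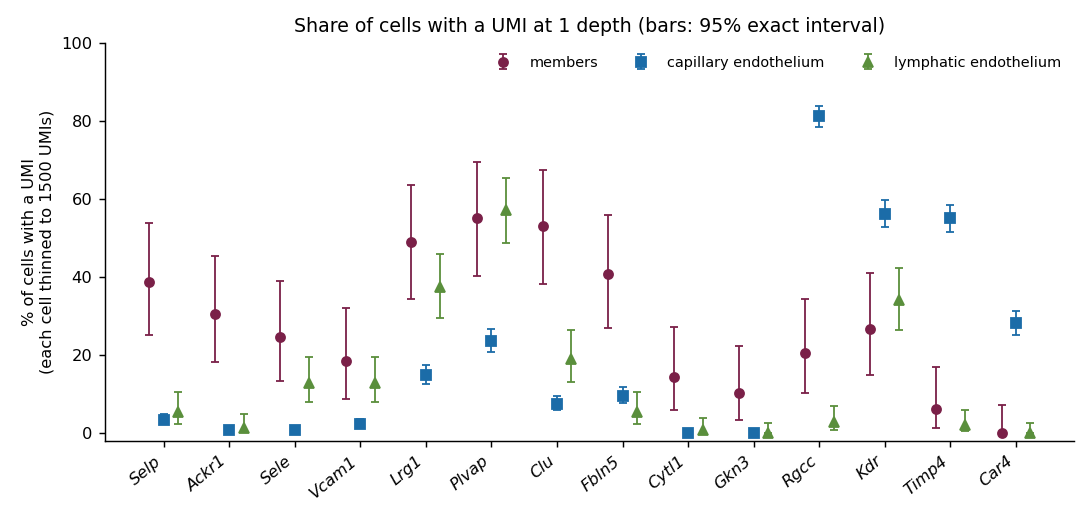
Percentage of cells with a UMI of 14 genes after every cell was thinned to 1500 UMIs, in members (circles), capillary endothelium (squares) and lymphatic endothelium (triangles), with 95% exact binomial intervals that cover counting error only. Selp, Ackr1, Cytl1 and Fbln5 lie highest in members, Lrg1 and Plvap are near the lymphatic share, and Rgcc, Kdr, Timp4 and Car4 lie highest in capillary cells.

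The members were themselves mixed along the line from vein to artery. Of the 54, 26 held UMIs of Selp or Ackr1 and none of the arterial connexins Gja4 and Gja5, 11 held Gja4 or Gja5 only, 4 held both and 13 held neither. In capillary endothelium the same classes held 50, 145, 8 and 804 of 1007 cells. Since these cells were divided by their own counts, what follows is description with no test. In the 26 cells with Selp or Ackr1 only, Plvap stood at a pooled 1583 CPM and was detected in 23 of the 26 cells, against 96.8 CPM and 2 of the 11 connexin cells. Lrg1 was detected in 23 of 26 cells, against 1 of 11. Aqp1, the aquaporin of endothelium, was detected in 26 of 26 cells and stood at 3401 CPM, against 2 of 11 cells and 38.7 CPM. Sele was detected in 12 of 26 cells and in 0 of 11.

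Sema3g, a semaphorin of arterial endothelium, was detected in 7 of 11 connexin cells, against 1 of 26. Gkn3, a marker of arterial endothelium in mouse, was detected in 6 of 11, against 1 of 26. Fn1, fibronectin, named after its values were seen, was detected in 7 of 11, against 1 of 26. Fbln5 was detected in 9 of 11, against 12 of 26, so it was common to both. Acta2, smooth muscle actin, stood at 794 CPM in the connexin cells, against 84.8 CPM in the Selp or Ackr1 cells, detected in 5 of 11 and 6 of 26. Of the 41 Acta2 UMIs of the connexin cells, 36 came from 2 cells, which held 81 and 57 UMIs of the smooth muscle and pericyte list. At least 10 UMIs of that list were held by 5 of the 11 connexin cells and 6 of the 26 Selp or Ackr1 cells, and the part of mural RNA in these values was not tested. Fabp4 stood at 9180 CPM in the connexin cells and at 19634 CPM in the Selp or Ackr1 cells. The balance differed by library: young male members split 12 with Selp or Ackr1 only to 5 with connexins only, young female members 5 to 2, labelled middle-aged male members 4 to 0, labelled middle-aged female members 1 to 3, aged male members 0 to 1, and aged female members 4 to 0 with 2 more cells holding both. In the aged female library, 3 cells held 526, 305 and 217 UMIs of the arterial list, more than members of any other library. The first 2 of these also held Selp and connexin UMIs, and the cell with 217 held 3 Selp UMIs and no Gja4 or Gja5, so it is one of the 4. Summed over the library, the arterial list reached 26475 CPM in aged female members, against 1304 to 7351 CPM in the other 5 libraries. Mgp, which is on that list, gave 348, 199 and 133 of the 526, 305 and 217 UMIs, so these values rest largely on 1 gene.

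**Figure D4:**
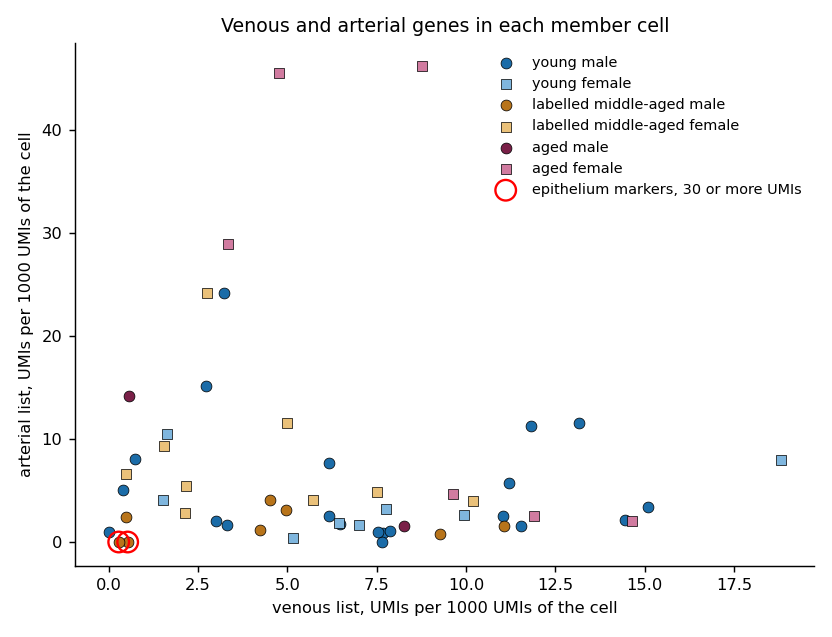
Each of the 54 members by its UMIs of the venous list (x) and of the arterial list (y), per 1000 UMIs of the cell, with colour and shape giving the library. High venous and high arterial values seldom fall in the same cell, 3 aged female cells lie far up the arterial axis, and the ringed pair of labelled middle-aged male cells with epithelium markers lies near the origin. The arterial list includes Mgp, which made up most of the arterial UMIs of the 3 aged female cells.

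Against lymphatic endothelium (156 cells with Prox1 or Mmrn1 and no Gpihbp1 or Ptprc), 7 of 8 tested capillary genes were higher in members, and 5 of 8 tested haemostasis genes and 3 of 8 flow-response genes were lower. The fit used the 4 young and middle-aged libraries, since the aged ones had under 5 members or lymphatic cells. Of 979 genes tested, 172 passed (17.6%), 81 higher (8.27%) and 91 lower (9.3%), by the same test. The count was 118 without the labelled middle-aged female library, 211 without the labelled middle-aged male one, 89 without the cells holding fibroblast or macrophage UMIs and 206 without those holding epithelium UMIs. Nts, neurotensin, had a lone UMI in members and 3631 in lymphatic cells, a pooled CPM ratio of 0.00124 (3.15e-05 to 0.00694, counting error only). Sema3d, a semaphorin, had 0 UMIs in members and 546 in lymphatic cells, at least 40.3-fold lower when 3 counts over the 54 members are taken as the floor. Ackr4, a scavenging chemokine receptor, had 0 and 194 UMIs, at least 14.3-fold lower.

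Of 8 tested capillary genes, 7 were higher in members than in lymphatic endothelium and Kdr was lower (log2 -1.33, adjusted p = 0.0279), with a median log2 difference of 3.70. The Kdr call was lost under 6 of 14 other settings, among them without the young male, the young female or the labelled middle-aged female library. Labelled middle-aged male members stood at 316 CPM of Kdr, against 359 CPM in lymphatic cells of that library. Without the pair with epithelium markers they stood at 650 CPM, above those lymphatic cells, and the classes overlapped. Fabp4 averaged 15522 ± 3467 CPM in members and 4846 ± 1095 CPM in lymphatic cells, with no overlap (SD, n = 4; log2 1.85 ± 0.16, adjusted p = 1.08e-05). Aqp1 stood at 2712, 2234, 1462 and 1391 CPM in members (young male and female, then labelled middle-aged male and female), against 44.7, 12.1, 205 and 16.8 CPM in lymphatic cells (log2 5.40 ± 0.54, adjusted p = 3.07e-05). Flt1, a decoy receptor for VEGF, stood at 643, 928, 593 and 623 CPM in members, against 29.8, 12.1, 17.1 and 30.8 CPM in lymphatic cells (log2 4.84 ± 0.38, adjusted p = 6.37e-06). Both genes were free of overlap. Jam2, a junctional adhesion molecule, and Cd34, a sialomucin, were among 4 of 8 tested leukocyte adhesion genes that were higher, with F11r lower. Rgs5 was also higher in members, at 351, 447, 237 and 1308 CPM, against 1 UMI in all lymphatic cells. That is a pooled ratio of 506 (89.0 to 20164, counting error only). Rgs5, a regulator of G-protein signalling, is a pericyte marker, and how much of it came from attached mural cells was not tested.

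Selp was the only one of 11 tested venous genes higher in members than in lymphatic cells, at 970, 859, 237 and 312 CPM, against 0, 36.2, 393 and 103 CPM (log2 2.51 ± 0.74, adjusted p = 0.0342). The classes overlapped through the labelled middle-aged male library, whose members stood at 488 CPM of Selp without the pair with epithelium markers, above its lymphatic cells. The call was lost under 4 of 13 other settings, among them without the young female or the labelled middle-aged female library. Lrg1 (log2 0.54, adjusted p = 0.475) and Plvap (log2 0.41 ± 0.33, adjusted p = 0.451) did not pass. Of 8 tested haemostasis genes, Thbd, Procr, Plat, Anxa2 and S100a10 were lower and Selp was higher, with a median of -1.08. Plat, tissue plasminogen activator, averaged 76.6 ± 89.9 CPM in members and 911 ± 352 CPM in lymphatic cells (SD, n = 4; log2 -3.39 ± 0.51, adjusted p = 0.000459). The Thbd call was lost under 10 of 14 other settings, among them without any 1 of the 4 libraries. Of 8 tested flow-response genes, Klf2, Klf4 and Thbd were lower and Txnip was higher. The Txnip call was lost under 6 of 14 other settings, among them without the labelled middle-aged female library, and the Klf2 call under 5 of 14, among them without the young male library. Klf4, a shear-stress factor, averaged 940 ± 236 CPM in members and 2484 ± 173 CPM in lymphatic cells, with no overlap (SD, n = 4; log2 -1.22 ± 0.22, adjusted p = 0.0018). Klf2 was lower in all 4 libraries (log2 -0.90 ± 0.22, adjusted p = 0.012), and Cldn5 was lower than in lymphatic cells as well (log2 -1.72 ± 0.40, adjusted p = 0.0104).

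Whether members became more or less frequent with age was compared over libraries. They made up a mean of 0.245% of kept barcodes in the 2 aged libraries and 0.216% in the 2 young ones, a difference of 0.0283 percentage points (exact two-sided permutation test, p = 1; the smallest p that 2 libraries against 2 allow is 0.333). The aged values were 0.0671% and 0.423%, on either side of the young values of 0.255% and 0.178%. Without the aged female library the difference was -0.1495 points, and without the young female library -0.0104 points. Of endothelial barcodes members made up a mean of 6.83% in aged and 3.57% in young libraries. The share of members depends on how many other cells were captured, and fewer other cells and more members cannot be told apart.

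No gene passed the test for age within members (0 of 1145, 0%, by edgeR's quasi-likelihood test, for aged against young and for middle-aged against young). At an unadjusted p under 0.05 there were 80 genes for aged and 78 for middle-aged, and DESeq2 called 3 and 2. The aged side is the 6 cells of the aged female library alone, since the aged male library held 2 members, and the lone library was taken to vary like the others. The count for aged against young was 56 without the labelled middle-aged male library, 52 without the labelled middle-aged female library and 42 without the cells holding epithelium UMIs. For middle-aged against young it was 31, 67 and 27. With labelled sex, which is also the replicate number, as a term of the fit, 10 genes passed for aged and 11 for middle-aged against young, and with the 2 middle-aged sex labels swapped in that term 37 and 26 passed. On counts simulated from the means and depths of these libraries, the same fit called 36.1% of genes changed by a log2 of 2. It called 1.16% of those changed by a log2 of 1, so the smaller size was seldom within reach in that simulation. Every simulated gene was given the same assumed spread, not estimated from these sums, so the reach of the fit in the real sums was not measured for either size.

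Selp and Ackr1 were detected in members of each age group. Selp in aged female members (678 CPM) lay below both young values (970 and 859 CPM) and above both middle-aged values (log2 -0.44 ± 0.55 against young, adjusted p = 0.843). For Ackr1 the log2 difference was -0.44 ± 0.65 (adjusted p = 0.865), with 291 CPM in aged female members, and the labelled middle-aged male value of 158 CPM was 325 CPM without the pair with epithelium markers. The 2 aged male members held 0 UMIs of either. Tmem252 and Cebpb were among the 3 genes of smallest p for aged against young, none of them past the threshold. Tmem252, a transmembrane protein, stood at 2010 and 1512 CPM in young male and female members, 553 and 436 CPM in labelled middle-aged male and female members, 203 CPM in aged male members (1 UMI) and 0 in aged female members (adjusted p = 0.0525). Its young values were the highest and the middle-aged values lay between. Cebpb, an inflammatory transcription factor, stood at 24.2 CPM in aged female members, against 713 and 825 CPM in young male and female members (log2 -4.83 ± 0.87, adjusted p = 0.273), and at 237 and 374 CPM in labelled middle-aged male and female members. Mgp rested on 681 UMIs in aged female members, against 90 and 27 UMIs in young ones (log2 4.05 ± 0.88, adjusted p = 0.321). Of the 27 young female UMIs, 26 came from the member that held 249 fibroblast UMIs. Mgp is itself on the arterial list, so high Mgp and a high count of that list are not separate observations. The aged female members with 526, 305 and 217 UMIs of the list held 348, 199 and 133 UMIs of Mgp. The number of arterial cells and the level per cell cannot be told apart in these sums. Fabp4 was lowest in aged female members at 5547 CPM (log2 -1.70 ± 0.40, adjusted p = 0.321), while the 2 aged male members held 23190 CPM. For middle-aged against young, Eln had the smallest p, at 79.0 and 20.8 CPM in labelled middle-aged male and female members, against 561 and 653 CPM in young male and female members (log2 -3.77 ± 0.70, adjusted p = 0.541), without overlap. Tmem252 passed under 7 of 13 other settings and Cebpb under 6 of 13, with log2 differences of -9.31 ± 1.29 and -4.84 ± 1.07 in the fit without cells holding epithelium UMIs. Eln passed under 6 of 14, with a log2 difference of -3.46 ± 0.81 in that fit. The Tmem252 difference of -9.31 rests on 0 UMIs in aged female members, where 1 UMI is 24.2 CPM, so its size is not set by the counts. The aged male members, at 203 CPM of Tmem252, were not in the fit.

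**Figure D5:**
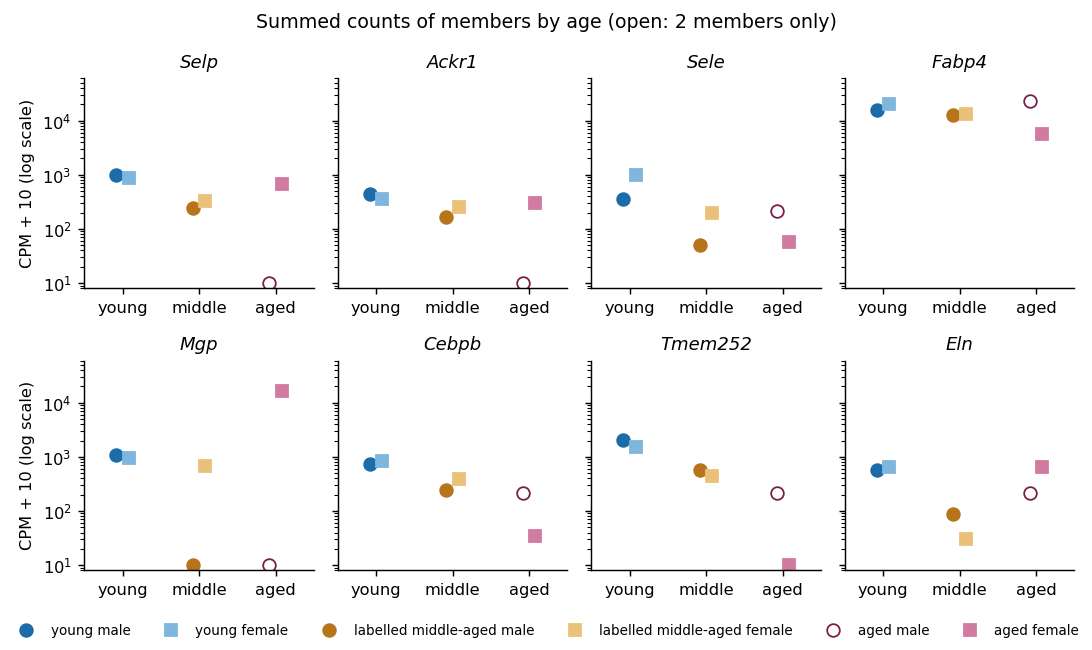
Summed counts of members by age group, as CPM + 10 on a log axis, for 8 genes in all 6 libraries; the open circle is the aged male library with 2 members. Selp and Ackr1 are present in both young, both middle-aged and the aged female library, Mgp is highest in the aged female library, and Tmem252 and Cebpb are highest in the young ones.

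The age difference was also compared between members and capillary endothelium. Of 2021 genes, 0 differed in their age difference (0 at adjusted p under 0.05, 197 at an unadjusted p under 0.05, by edgeR's quasi-likelihood test, and 1 by DESeq2). The count was 12 without the young female library, 31 without the labelled middle-aged male and 56 without the labelled middle-aged female library, and 23 without the cells holding epithelium UMIs. Fabp4, Fosb and Junb had the smallest p, with Fabp4 at a log2 of -1.82 ± 0.27 for members relative to capillary cells (adjusted p = 0.052).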

How the data were processed

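Each library was a droplet single-cell RNA library deposited as a UMI count matrix, made with Cell Ranger 3.0.2 on mm10 per the submitters' processing notes, which also name Seurat; counts deposited by the authors list every barcode and are not normalised. No sample has 2 libraries, and cells were not treated as replicates. Counts were summed per library and class, converted to CPM for display, and tested with edgeR 4.0.16 (quasi-likelihood, TMM, filterByExpr with a minimum count of 10, Benjamini-Hochberg adjusted p under 0.05) in R 4.3.3, with the library as a block between classes. The 7 rule genes were left out. A planned minimum of 20 cells per sum was met by 1 library, so the fits used at least 5 cells, chosen after the counts were seen. Named genes were the 10 per direction of largest fold among calls with at least 30 CPM and 1 direction in every library, up to 3 per list by smallest p, and a list of 46 genes; for age, the 3 of smallest p, of which 1 is not reported here. The 31 gene lists and the members were chosen with earlier results of these data known. Both classes of a library came from the same dissected tissue, which is the pairing behind the block. Gene positions came from GENCODE M21, in which 31011 of 31053 IDs were found. On simulated counts the capillary fit called 19.8% of genes changed by a log2 of 1 (2107 genes tested) and 96.4% of those changed by 2 (2003 tested). The simulated counts gave every gene the same assumed spread, not estimated from the data. Shares and pooled ratios carry exact binomial intervals, which cover counting error and not the spread between libraries. Scrublet (scanpy 1.11.5, expected rate 6%) marked doublets. DESeq2 1.42.0, other size factors, no filter, stricter Vwf, thinned sums and left-out libraries or cells were alternatives.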

Additional observations from a re-analysis of the deposited data

How the results depend on the processing

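Against capillary endothelium, 43 named genes were recomputed under up to 17 other settings each: 598 of 667 recomputed values kept the direction and the side of the threshold, 69 lost the call and 0 reversed. Against lymphatic endothelium the figures were 638, 92 and 0 of 730 for 57 genes. Other size factors moved the median of all genes by at most 0.079 (log2). The cause of the changes below was not tested, except that fewer sums or genes entered several of the fits.

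Calls against capillary endothelium numbered 292 of 15789 genes with no filter, 49 with at least 2 Vwf UMIs and 3 members, 49 without cells holding fibroblast or macrophage UMIs, 57 with sums thinned to 1 depth, and 51 to 131 when 1 library was left out. With no replicate block they numbered 74, of which 72 were shared, against 108 with it. Against lymphatic endothelium they numbered 430 of 12778 with no filter, 60 with at least 2 Vwf UMIs and 3 members, 89 without cells holding fibroblast or macrophage UMIs, and 118 to 211 when 1 library was left out; with no replicate block they numbered 137. Leaving out each library by turn is possible only for the fitted libraries.

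For aged against young in members, where 0 genes passed, DESeq2 called 3, the fit with no filter 15, that without cells holding epithelium UMIs 42, that with labelled sex as a term 10 and that with the 2 middle-aged sex labels swapped 37; leaving out 1 library gave 0 to 56. For middle-aged against young these were 2, 29, 27, 11 and 26, and 0 to 67. For the age difference of members relative to capillary cells they were 1 with DESeq2, 15 with no filter, 2 with at least 2 Vwf UMIs and 3 members, 5 without doublets, 23 without cells holding epithelium UMIs, and 0 to 56. The sex term pairs libraries by labelled sex, which is also the replicate number, so it is the replicate block of the age fits. The aged against young difference in the share of members ranged from -0.1495 to 0.206 percentage points when 1 library was left out, with the direction turned at -0.1495 and -0.0104.

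Without the aged female library the aged fits could not be made, and at least 2 Vwf UMIs with 5 members each left too few sums for the lymphatic and age fits; leaving out cells with fibroblast or macrophage UMIs left no aged sum. Depth limits every result: 234316 UMIs in 54 cells, with 1 UMI worth 4.27 CPM of the pooled sum.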
